A study of Mus musculus with 7 samples.

Results

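The mouse Q region holds a row of class I genes of the major histocompatibility complex, and nascent RNA of 7 of them, H2-Q1, H2-Q2, H2-Q4, H2-Q5, H2-Q6, H2-Q7 and H2-Q10, is described here. They were taken by name from the 55487 genes of the unfiltered count table. All libraries came from GFI1+ IAHC, the intra-aortic hematopoietic clusters, sorted as CD31+cKIT+GFI1+ from the aorta-gonad-mesonephros (AGM) of E11.5 embryos of the CD1 strain carrying the Gfi1:tomato reporter, and labelled hematopoietic stem cells. Every group had been kept overnight in compound E (compE), a γ-secretase inhibitor that blocks release of the Notch intracellular domain, and was then washed and divided into sets of 300 to 400 cells. For the next 4 h, with ethynyl uridine (EU) to label new RNA, the sets were held without the inhibitor (washout, 3 libraries), with compE again (2 libraries) or with recombinant Fc-JAG1, a soluble form of the Notch ligand JAGGED1 (2 libraries). The number in a library's name is the embryo number of the labels, whereas the methods describe cells pooled from several embryos. Fc-JAG1 was measured for numbers 1 and 3 and compE for numbers 1 and 2. The paper reports that a sample named Fc-JAG1_2 was excluded because of a low share of uniquely aligned reads. No group was left without inhibitor from the start, so all comparisons are between cells that had been blocked overnight.

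Class I molecules are made of a heavy chain, the light chain β2-microglobulin and a short peptide, and the classical heavy chains H2-K1 and H2-D1 show peptides to T cells on nearly every nucleated cell. The Q genes encode nonclassical (class Ib) heavy chains, which vary less between individuals and are often limited to certain tissues. H2-Q6 and H2-Q7 encode Qa-2, a molecule tied to the membrane by a lipid anchor, H2-Q10 encodes a secreted heavy chain made mainly in liver, and H2-Q4 encodes the Qb-1 antigen. Because they arose by duplication, these genes share long stretches of sequence, and a short read cannot always be given to one of them.

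In GRCm38 the 7 genes lie on the plus strand of chromosome 17 between H2-D1 (chr17:35262730-35267499) and Pou5f1 (chr17:35506018-35510772). H2-Q1 occupies chr17:35320405-35325099, H2-Q2 chr17:35342242-35346762 and H2-Q4 chr17:35379617-35385290. Next come H2-Q5 (chr17:35394126-35397800), which the GENCODE M21 annotation classes as a polymorphic pseudogene, H2-Q6 (chr17:35424850-35430055), H2-Q7 (chr17:35439155-35443773) and H2-Q10 (chr17:35470089-35474563). H2-Q4 overlaps the antisense gene Gm11131 by 676 bases. The strand setting of the authors' counting is not given in the sources used here, so reads of this overlap cannot be told apart if strand was ignored. Gm11131 had between 0 and 4 counts in every library.

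How alike the genes are is shown by one 50-base stretch of coding exon 4, the length of the reads. The first line is identical in H2-Q1 (chr17:35323223-35323272, the plus strand), H2-Q4, H2-Q6, H2-Q7, H2-Q10, H2-K1, H2-D1 and the pseudogene H2-T-ps, 8 genes in all. The others are the same stretch in H2-Q2 (chr17:35344914-35344963) and H2-Q5 (chr17:35397226-35397275), with capitals at the 2 and 3 bases that differ from the first line. They were read from the GENCODE M21 transcripts.
H2-Q1: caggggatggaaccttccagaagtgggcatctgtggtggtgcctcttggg
H2-Q2: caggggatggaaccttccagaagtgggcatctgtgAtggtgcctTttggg
H2-Q5: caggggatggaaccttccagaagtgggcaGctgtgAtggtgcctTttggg
A read of the first line maps to several genes and is dropped when only uniquely mapped reads are kept, whereas the H2-Q2 and H2-Q5 forms were found in no other annotated transcript. The alignment allowed 1 mismatch and used the C57BL/6 reference, while the cells came from CD1, so an allele of CD1 that differs from the reference could be lost or placed on a neighboring copy.

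Over all exons, 85.0% of the 50-base windows of H2-Q1 and 83.9% of those of H2-Q2 occurred in no other annotated gene. The share was 80.9% for H2-Q10 and 73.5% for H2-Q7, and fell to 65.0% for H2-Q6 and 63.6% for both H2-Q4 and H2-Q5. The classical genes stood at 90.4% (H2-K1) and 87.2% (H2-D1). H2-Q5 shared 393 windows with H2-Q7, which were 25.5% of those of H2-Q5 and 8.74% of those of H2-Q7, and their coding sequences were identical at 96.9% of aligned bases. H2-Q6 and H2-Q7 were identical at 95.5% and H2-Q5 and H2-Q6 at 94.9%, against 85.6% for H2-Q2 and H2-Q10, the most distant pair of members. H2-Q7 and H2-Q10 shared 631 windows, 14% of each. Since alleles of CD1 may differ from the reference, the counts of H2-Q5, H2-Q6 and H2-Q7 are uncertain as to which of these genes they came from. Introns and unannotated sequence were not searched, since no genome sequence was used here. Only exact matches were counted, so a window with a near-identical copy in another gene counts as unique. The authors' alignment also kept matches shorter than the read, so the shares may overstate how well reads could be assigned.

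**Figure D1:**
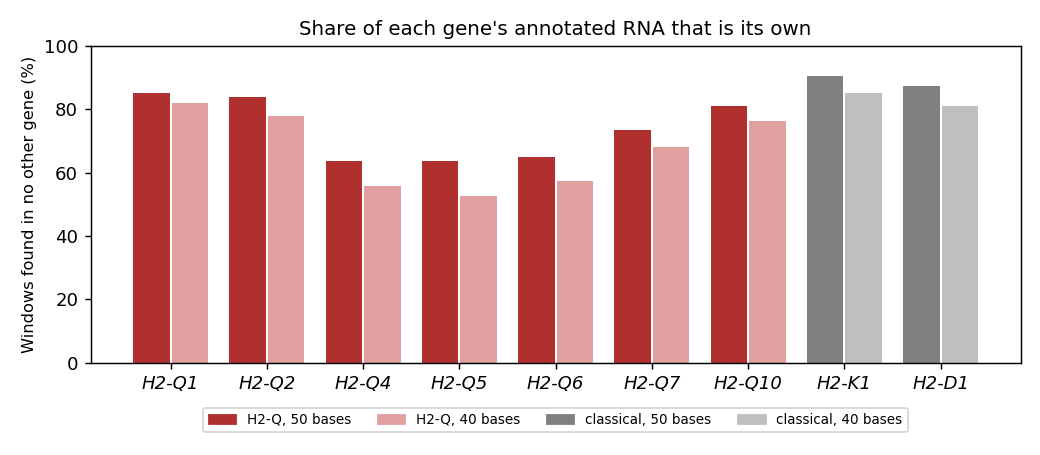
Share of each gene's exonic windows (percent, bars from 0) that occur in no other annotated gene, for windows of 50 bases (dark) and 40 bases (pale), for the 7 H2-Q genes (red) and 2 classical genes (grey). H2-Q4 and H2-Q5 have the lowest share at 50 bases, 63.6% each, and H2-K1 the highest, 90.4%.

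The libraries held 21652927 to 33974693 counts and had 6265 to 12351 genes with at least 10 counts. Washout 2, compE 2 and Fc-JAG1 1 were rich in genes, with at least 10 counts for 94.2%, 92.4% and 90.5% of the 10311 genes tested, against 56.2% to 71.1% in the other 4 libraries. The pre-amplified cDNA was counted without molecular identifiers, so a large count can come from few captured molecules and counting intervals would be too narrow. Markers of the sorted cells were largely present, with 8 or 9 of 10 at 10 counts or more in every library, but Gfi1 itself, on which the sort rested, had 0, 12 and 2477 counts in washout 1 to 3, 0 in both compE libraries, 2504 in Fc-JAG1 1 and 0 in Fc-JAG1 3. Macrophage markers summed to 91.8 and 135 CPM (counts scaled to a common library size, here by total counts) in compE 1 and Fc-JAG1 3 and to 372.5 to 565 in the others, and markers of red cells to 20.1 to 569. No T or NK cell marker reached 10 counts except 1 in each compE library, and mesenchyme and epithelium markers summed to at most 15.7 and 12.9. The part of these differences in the results below was not tested. Less RNA per cell and fewer cells that transcribe a gene cannot be told apart in such libraries.

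All 7 genes had low counts, and the members that were tested stood low among the genes tested. Added over the 7 genes, washout 1 had 0 counts, washout 2 had 283 and washout 3 had 265. The compE libraries had 183 and 166, and the Fc-JAG1 libraries had 387 and 445, the highest of all. For a count of 0 in washout 1 a floor of 3 counts in that library was used, which is 0.174 CPM with trimmed-mean (TMM) scaling. This floor covers counting alone, and the true level could be higher. Among the 10311 genes tested, the mean level of H2-Q4 stood at percentile 13.7, that of H2-Q2 at 10.1 and that of H2-Q1 at 8.78, with H2-Q7 and H2-Q5 at 1.18 and 0.737.

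Per kb of exon, with the same scaling, H2-Q4 was the highest with 1.40 ± 1.12 CPM per kb (SD, n = 7 libraries), followed by H2-Q2 (0.936 ± 0.967) and H2-Q1 (0.557 ± 0.702). H2-Q5 (0.183 ± 0.214), H2-Q10 (0.0956 ± 0.176) and H2-Q7 (0.0774 ± 0.116) came next, and H2-Q6 was last (0.00432 ± 0.00747). Neighbors in this order differed by less than the larger of their SDs over libraries, and the 2 counts of H2-Q6 in all are under the floor of 3. The order of the first 3 changed with the condition. With Fc-JAG1, H2-Q2 (2.00 ± 1.07 CPM per kb) and H2-Q1 (1.55 ± 0.0584) lay above H2-Q4 (1.27 ± 1.59), while in the washout H2-Q4 (1.26 ± 1.14) lay above H2-Q2 (0.736 ± 0.652) and H2-Q1 (0.149 ± 0.257).

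**Figure D2:**
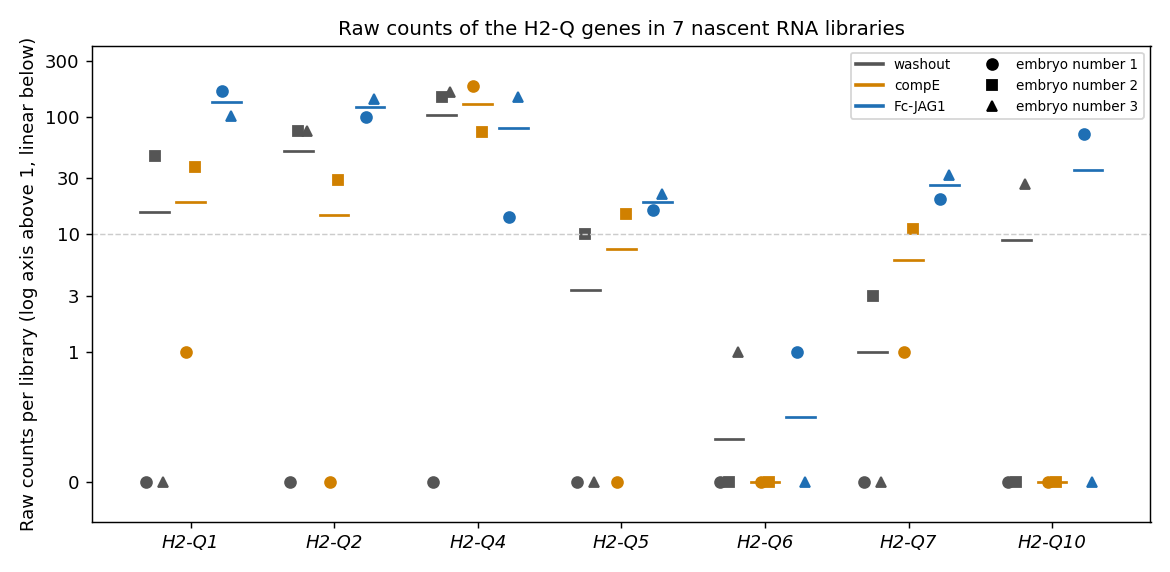
Raw counts (y axis, logarithmic above 1 and linear below) of each H2-Q gene in each of the 7 libraries, colored by condition, with the marker showing the embryo number, a short line at the condition's mean and a dashed line at 10 counts. For H2-Q1, H2-Q2, H2-Q5 and H2-Q7 both Fc-JAG1 libraries lie above all others, H2-Q4 is present in all but washout 1, and H2-Q6 never exceeds 1 count.

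H2-Q1 had 0, 46 and 0 counts in the 3 washout libraries, 1 and 37 counts with compE and 166 and 102 counts with Fc-JAG1. It was thus near 0 in washout 1, washout 3 and compE 1, and both Fc-JAG1 libraries lay above every other library. H2-Q2 had 0, 76 and 76 counts in the washout, 0 and 29 with compE and 99 and 142 with Fc-JAG1. Here the groups barely parted, since Fc-JAG1 1 stood at 2.72 CPM and washout 3 at 2.71 CPM. H2-Q2 differed from H2-Q1 above all in washout 3, where H2-Q1 had 0 counts.

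H2-Q4 had 0, 148 and 161 counts in the washout, 181 and 74 with compE and 14 and 147 with Fc-JAG1. Its groups overlapped in every comparison, and Fc-JAG1 1, where H2-Q1 was highest, was the library with the fewest H2-Q4 counts other than washout 1. In compE 1 it made up 181 of the 183 counts of the 7 genes.

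H2-Q5 had 0, 10 and 0 counts in the washout, 0 and 15 with compE and 16 and 22 with Fc-JAG1. H2-Q7 had 0, 3 and 0 counts in the washout, 1 and 11 with compE and 20 and 32 with Fc-JAG1. Both genes were seen in libraries that also held H2-Q1 and were highest in the Fc-JAG1 libraries, by a narrow margin for H2-Q5, where compE 2 had 15 counts and Fc-JAG1 1 had 16. They share long stretches of sequence, and whether reads of one were placed on the other was not tested.

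H2-Q6, also a Qa-2 gene, had a single count in washout 3 and in Fc-JAG1 1 and none elsewhere, so no difference was detectable at this depth. H2-Q10 had 27 counts in washout 3 and 71 in Fc-JAG1 1 and 0 in the other 5 libraries. Its groups overlapped, because the other Fc-JAG1 library and the other washout libraries had none. Hepatocyte markers were at 3 counts or fewer per gene in every library but Fc-JAG1 3, which had 2355 counts of Alb, 1241 of Ahsg and 33 of Fgb. H2-Q10 had 0 counts in that library. H2-Q6 and H2-Q10 did not reach 10 counts in 2 replicates of any condition and were not among the genes tested.

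**Figure D3:**
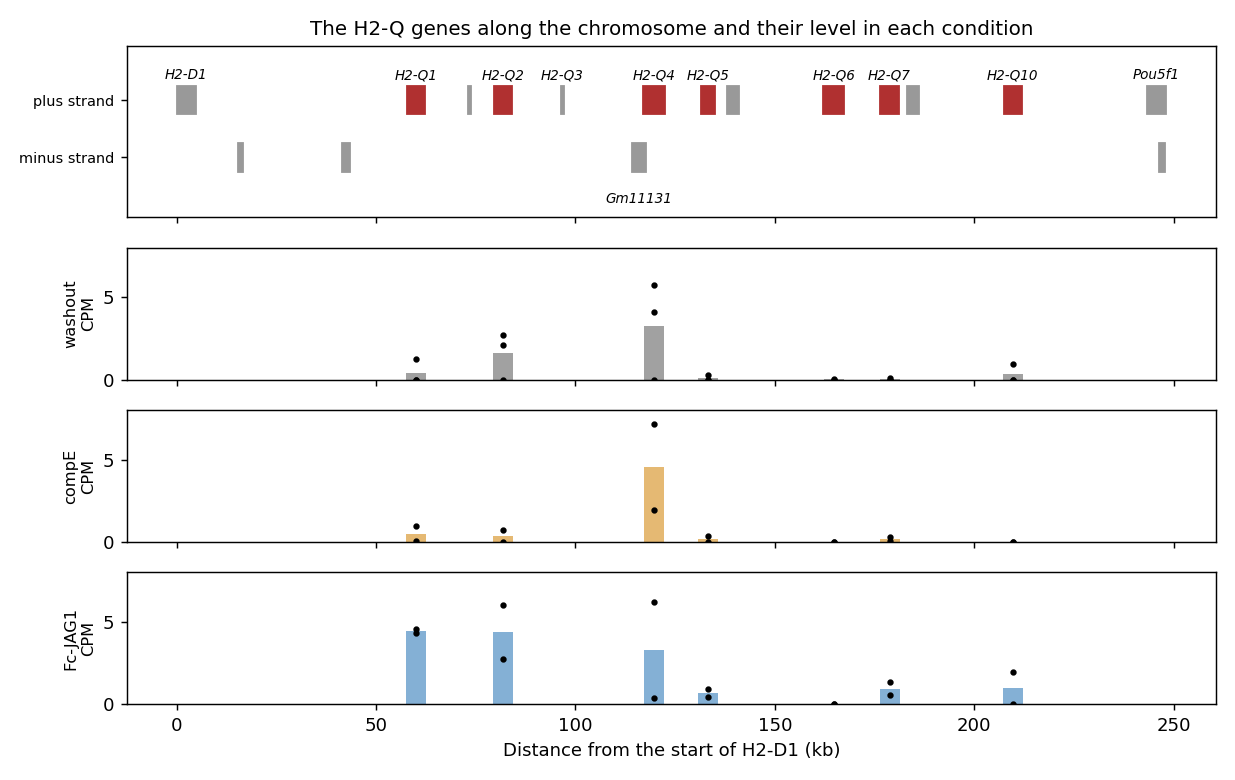
Genes between H2-D1 and Pou5f1 by distance from the start of H2-D1 in kb and by strand (top), and below it the mean level of each H2-Q gene in CPM with TMM scaling (bars from 0), with 1 point per library, for washout, compE and Fc-JAG1. With Fc-JAG1 the bars of H2-Q1 (4.44 CPM) and H2-Q2 (4.37 CPM) exceed that of H2-Q4 (3.31 CPM), whereas H2-Q4 is the highest bar in washout (3.28 CPM) and compE (4.53 CPM).

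The comparison of Fc-JAG1 with the washout asked which genes respond to added ligand once the inhibitor is gone. H2-Q1 had a mean of 4.44 ± 0.167 CPM (SD, n = 2) with Fc-JAG1 and 0.425 ± 0.736 CPM (n = 3) in the washout. H2-Q7 had 0.952 ± 0.570 against 0.0277 ± 0.0480 CPM, H2-Q5 had 0.686 ± 0.348 against 0.0924 ± 0.160 CPM and H2-Q2 had 4.37 ± 2.33 against 1.60 ± 1.42 CPM. H2-Q4 had nearly the same mean in both (3.31 ± 4.13 and 3.28 ± 2.96 CPM). For 4 of the 5 tested members (H2-Q1, H2-Q2, H2-Q5 and H2-Q7) the Fc-JAG1 libraries did not overlap with the washout and were higher, where 10.5% of all tested genes did so and 6.85% were lower in this sense. No member was lower. H2-Q1, H2-Q5 and H2-Q7 reached 10 counts in 2 replicates, the requirement for a test, only with Fc-JAG1. The count of 4 of 5 is therefore not independent of how the tested members were chosen. With the size factors of DESeq2, H2-Q2 overlapped and the other 3 did not.

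By edgeR's quasi-likelihood test with embryo number and condition as terms, no member passed an adjusted p of 0.05, and neither did any of the 10311 genes (0 called, 526 or 5.10% at an unadjusted p under 0.05). H2-Q7 had a log2 fold change of 6.32 (SE 1.87), the 7th smallest p of all genes and an adjusted p of 0.828 by edgeR. H2-Q5 followed with 7.36 (SE 2.32) and H2-Q1 with 7.81 (SE 2.80), both at the same adjusted p and also under 0.05 unadjusted. The fit gave 1.97 (SE 1.58) for H2-Q2 and −0.73 (SE 1.94) for H2-Q4 by edgeR, neither beyond 2 SE of 0. The value of H2-Q2 rose to 8.64 without washout 3 and to 8.67 without Fc-JAG1 3 and was 1.15 without Fc-JAG1 1. With no term for embryo number edgeR gave 3.01 (SE 1.55) for H2-Q1, 2.35 for H2-Q5 and 4.43 (SE 1.71) for H2-Q7, all smaller than with it. The median log2 fold change was 6.32 over the 5 members and 0.44 over all genes. As H2-Q1, H2-Q5 and H2-Q7 were tested only because of their Fc-JAG1 counts, this median and their small p are not independent of that choice. These log2 values rest on libraries at or near 0 and give no measured fold.

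DESeq2's Wald test, used by the study, called 3 of the 5 members higher and 0 lower with Fc-JAG1, where it called 16.0% of all tested genes higher and 4.79% lower. H2-Q1 had a log2 fold change of 8.04 (SE 1.78, DESeq2 adjusted p = 0.000209), H2-Q7 of 6.05 (SE 1.54, DESeq2 adjusted p = 0.00135) and H2-Q5 of 5.96 (SE 1.57, DESeq2 adjusted p = 0.00199). H2-Q2 did not pass (4.24, DESeq2 adjusted p = 0.0848). The 3 called members are those that were tested only because of their Fc-JAG1 counts. Their number thus cannot be read against the 16.0% of all tested genes. With no term for embryo number DESeq2 called H2-Q7 alone, with 1.75% of all tested genes higher, and gave H2-Q1 3.51 (adjusted p = 0.419). In the 7 fits that left out 1 library, it set H2-Q5 and H2-Q7 aside for low counts and gave them no adjusted p. H2-Q1 was called without washout 1, washout 2, compE 1 or compE 2, missed the threshold without washout 3 (DESeq2 adjusted p = 0.128) or Fc-JAG1 1 (0.0563) and had no adjusted p without Fc-JAG1 3. DESeq2 called 7.87% to 12.8% of all tested genes higher in these fits.

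**Figure D4:**
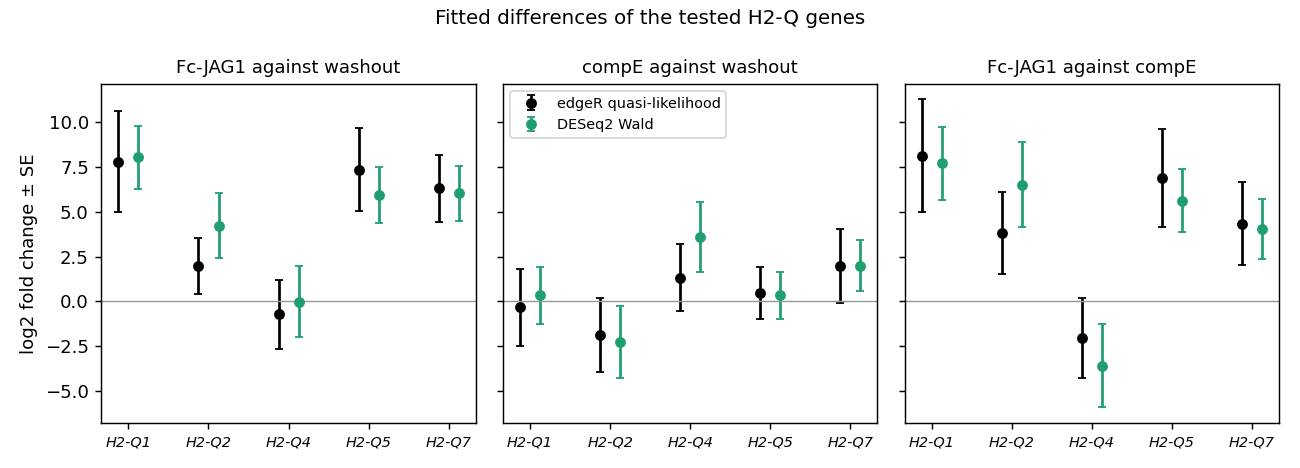
Log2 fold change (y axis, with SE as bars) of the 5 tested H2-Q genes in each of the 3 comparisons by edgeR (black) and DESeq2 (green), in fits with embryo number and condition. H2-Q1, H2-Q5 and H2-Q7 lie at 5.96 to 8.04 in Fc-JAG1 against washout by both tools, while in compE against washout their values run from −0.34 to 1.99.

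Within an embryo number, the ligand could be compared with the washout for numbers 1 and 3, whose washout libraries were the 2 with the fewest genes. For washout 1, which had no H2-Q count, a floor of 3 counts in that library was used. Against this floor Fc-JAG1 1 was 26.2-fold higher for H2-Q1, 15.6-fold for H2-Q2 and 11.2-fold for H2-Q10. It was 3.15-fold higher for H2-Q7, 2.52-fold for H2-Q5 and 2.21-fold for H2-Q4. The floor covers counting alone, and counting intervals are too narrow here, so such folds are not firm lower bounds. Against the same kind of floor in washout 3, Fc-JAG1 3 was 40.4-fold higher for H2-Q1, 12.7-fold for H2-Q7 and 8.72-fold for H2-Q5. For H2-Q2 it was 2.22-fold higher than washout 3 and for H2-Q4 the ratio was 1.09. H2-Q10 was 7.57-fold lower, with the floor used for Fc-JAG1 3.

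The gene-rich washout 2 had no Fc-JAG1 partner of its number among the libraries kept. Set beside it, the gene-rich Fc-JAG1 1 had 3.57 times the H2-Q1 level, 6.60 times that of H2-Q7 (20 counts against 3), 1.58 times that of H2-Q5 and 1.29 times that of H2-Q2. It had 0.0937 times the level of H2-Q4. The H2-Q1 and H2-Q7 differences between gene-rich libraries were thus smaller than the fitted ones, and no error can be given for a single pair of libraries.

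**Figure D5:**
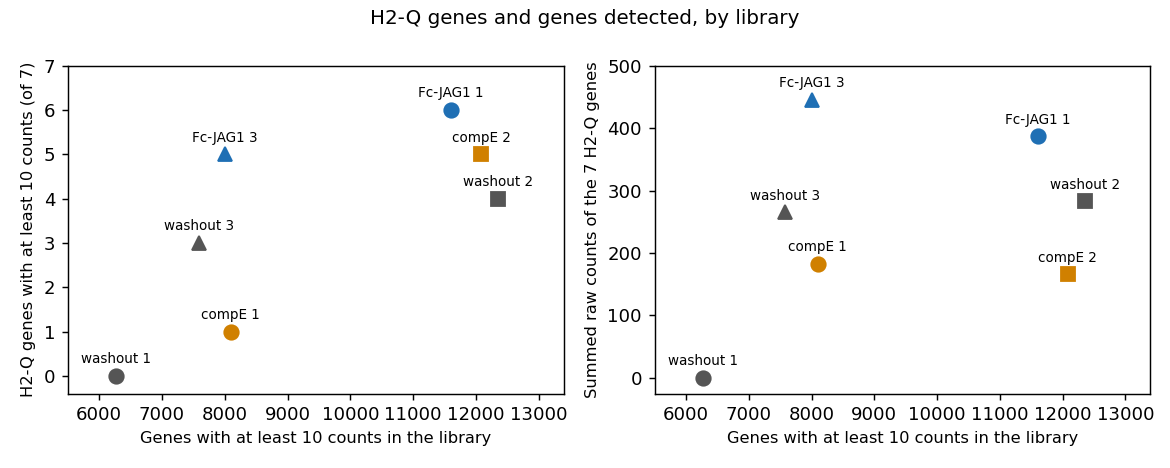
Number of H2-Q genes with at least 10 counts (left) and summed raw counts of the 7 genes (right) in each library, against the number of all genes with at least 10 counts on the x axis, colored by condition and marked by embryo number. Washout 1 has the fewest genes and no H2-Q counts, and the Fc-JAG1 libraries have the highest summed counts, 387 and 445, although Fc-JAG1 3 has 8006 genes and Fc-JAG1 1 has 11600.

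In number of H2-Q genes with at least 10 counts, washout 1 had 0, washout 2 had 4 and washout 3 had 3. The compE libraries had 1 and 5, and the Fc-JAG1 libraries 6 and 5. The summed level was 14.7 ± 5.82 CPM with Fc-JAG1 (SD, n = 2), 5.76 ± 5.05 CPM in the washout (n = 3) and 5.76 ± 2.09 CPM with compE (n = 2). Without washout 1 the washout stood at 8.64 ± 1.13 CPM, below both Fc-JAG1 libraries (10.6 and 18.8 CPM). With the size factors of DESeq2 the sums overlapped, at 10.1 CPM in washout 3 and 8.97 CPM in Fc-JAG1 1. The sum was tested in no comparison.

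The comparison of compE with the washout asked what changed when Notch cleavage stayed blocked. No H2-Q gene passed by edgeR, which called none of the 10311 genes (271 or 2.63% at an unadjusted p under 0.05), or by DESeq2, which called 9.56% of them, 5.80% higher and 3.76% lower. H2-Q2 had 0.374 ± 0.529 CPM with compE (n = 2) and 1.60 ± 1.42 CPM in the washout (n = 3), and a log2 fold change of −1.87 (SE 2.08). H2-Q4 had 4.53 ± 3.71 against 3.28 ± 2.96 CPM, with 1.32 (SE 1.88). H2-Q1 (0.497 ± 0.647 against 0.425 ± 0.736 CPM), H2-Q5 (0.194 ± 0.274 against 0.0924 ± 0.160 CPM) and H2-Q7 (0.162 ± 0.173 against 0.0277 ± 0.0480 CPM) had fitted values of −0.34, 0.48 and 1.98. These values are from edgeR, and each was smaller than its SE. DESeq2 gave 3.59 (SE 1.96) for H2-Q4, −2.28 (SE 2.01) for H2-Q2 and 1.99 (SE 1.41) for H2-Q7, each within 2 SE of 0.

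No member separated the compE libraries from the washout, where 10.9% of all tested genes did so upward and 6.79% downward. Between the gene-rich compE 2 and washout 2, H2-Q2 stood at 0.355 times, H2-Q4 at 0.466 times and H2-Q1 at 0.749 times the washout level, with H2-Q5 at 1.40 times and H2-Q7 at 3.41 times (11 counts against 3). Without compE 1, H2-Q5 and H2-Q7 in compE 2 were above all washout libraries, as were 22.6% of all tested genes. Without both compE 1 and washout 1, H2-Q2 and H2-Q4 were lower as well, as were 27.9% of all tested genes.

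Fc-JAG1 was also compared with compE, a contrast that shares libraries with both others. H2-Q1, H2-Q2, H2-Q5 and H2-Q7 were higher in both Fc-JAG1 libraries than in both compE libraries, where 15.0% of all tested genes were, and no member was lower in this sense, where 15.4% were. Because H2-Q1, H2-Q5 and H2-Q7 were tested only through their Fc-JAG1 counts, neither this count nor the calls below are independent of that choice. By edgeR none of the 10311 genes was called (292 or 2.83% at an unadjusted p under 0.05), with log2 fold changes of 8.14 (SE 3.16) for H2-Q1, 6.89 (SE 2.73) for H2-Q5, 4.34 (SE 2.30) for H2-Q7 and 3.84 (SE 2.29) for H2-Q2. H2-Q4 had −2.05 (SE 2.22). DESeq2 called 2.56% of all tested genes lower, with no member, and 10.3% higher, among them H2-Q1 (adjusted p = 0.00366), H2-Q5 (adjusted p = 0.0182) and H2-Q2 (adjusted p = 0.0480), but not H2-Q7 (adjusted p = 0.0903). It called H2-Q1 without washout 1, and no member without each of the other 6 libraries or with no term for embryo number, where 1.05% to 11.9% of all tested genes were called higher without 1 library and 1.04% with no such term. H2-Q1, H2-Q5 and H2-Q7 had no adjusted p in 3, 6 and 5 of the 7 fits without 1 library. Both Fc-JAG1 libraries lay above all 5 others for H2-Q1, H2-Q2, H2-Q5 and H2-Q7, as for 4.74% of tested genes, and the H2-Q5 margin over compE 2 was 1.13-fold (16 counts against 15).

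The 5 tested members did not follow one pattern over the libraries. H2-Q1 and H2-Q5 reached 10 counts in the same 4 libraries (washout 2, compE 2 and both with Fc-JAG1), a pattern shared by 374 tested genes (3.63%). H2-Q7 did so in 3 of them, a pattern of 62 genes (0.601%), and H2-Q4 in all but washout 1, a pattern of 1030 genes (9.99%). Likeness was measured as the root mean square difference of centered log2 CPM over the 7 libraries, where 0 is the same profile. Among members it was closest for H2-Q5 and H2-Q7 (0.58), the pair with the most similar coding sequences, and farthest for H2-Q1 and H2-Q4 (3.20).

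Over all tested genes, the profile nearest to H2-Q1 was that of Mei1, a gene of meiosis (0.62), then Extl3, an enzyme of heparan sulfate synthesis (0.67), and the zinc finger gene Zfp521 (0.75). Among those nearest to H2-Q2 were Gm16066 (0.45) and the kinase gene Map4k4 (0.66). H2-Q4 was nearest to the kinesin gene Kif21b (0.66), Hook3 (0.71) and Phf20 (0.82). The genes nearest to H2-Q5 were Otud7a, a deubiquitinase gene (0.37), Gm11635 (0.39) and Trnau1ap (0.43), and H2-Q7 was nearest to Trnau1ap and Otud7a (both 0.57) and H2-Q5 (0.58). No other class I gene was among them. Low counts keep such profiles flat, so small differences are easier to reach for H2-Q5 and H2-Q7.

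The neighbors on the chromosome each had a course of their own. H2-D1 had 7011, 6305 and 17958 counts in the washout, 15867 and 3058 with compE and 4762 and 3610 with Fc-JAG1. Its log2 fold change with Fc-JAG1 against the washout was −2.11 (SE 1.40, adjusted p = 0.864) by edgeR and −2.45 (SE 0.77, adjusted p = 0.0115) by DESeq2, opposite in sign to those of H2-Q1, H2-Q2, H2-Q5 and H2-Q7. H2-K1, which lies outside this stretch, had 4364, 2108 and 183 counts in the washout, 545 and 4542 with compE and 6183 and 4917 with Fc-JAG1, with 2.28 (SE 2.84) by edgeR. The pseudogene H2-Q3, between H2-Q2 and H2-Q4, had at most 12 counts in a library, and Pou5f1 had none in any.

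Of the 19 class I heavy chains outside the Q region, 4 were tested, and DESeq2 called 0 higher and 1 lower (H2-D1) with Fc-JAG1 against the washout. Of all tested genes it called 16.0% higher and 4.79% lower. By overlap of libraries, 1 of the 4 was higher and 1 lower with Fc-JAG1 than in the washout, beside 10.5% and 6.85% of all tested genes. Against compE, 1 was higher and 0 lower, beside 15.0% and 15.4%. The light chain gene B2m had 0 counts in all 7 libraries, so it could not be compared, although a heavy chain needs it to reach the surface. Of 13 genes of the light chain and peptide loading, 10 were tested and 1 was called higher by DESeq2 with Fc-JAG1 against the washout, beside 16.0% of all tested genes. This was Erap1, which trims peptides (0, 1866 and 6 counts in the washout, 2 and 1030 with compE, 4324 and 2913 with Fc-JAG1). It reached 10 counts in the same 4 libraries as H2-Q1, and was likewise tested only because of its Fc-JAG1 counts. None of the 2 tested genes of the immunoproteasome and its activator or of the 6 tested of 25 interferon-stimulated genes was called by DESeq2 with Fc-JAG1 against the washout, where it called 20.8% of all genes. With compE against the washout it called 1 heavy chain gene lower, beside 3.76% of all tested genes. This was Fcgrt, the neonatal Fc receptor (381, 326 and 0 counts in the washout and 0 in the other libraries). Fcgrt was tested only because of its washout counts, so this call is not independent of that choice. None of the receptors that bind class I or Qa molecules was tested.

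Among 19 genes of transcription factors that act on class I promoters, 12 were tested. DESeq2 called 4 of them higher and none lower with Fc-JAG1 against the washout, beside 16.0% and 4.79% of all tested genes. Creb1, a factor that binds cyclic AMP response elements, had 2, 2256 and 0 counts in the washout, 4 and 2462 with compE and 3051 and 4899 with Fc-JAG1. Creb1 was tested only because of its Fc-JAG1 counts, so neither the 4 here nor the calls against compE below are independent of that choice. Nfyc, a subunit of the CCAAT-binding factor, had 55, 1457 and 4, then 94 and 3024, then 1784 and 1062. In the same order, Rela, which encodes a subunit of NF-κB, had 0, 843 and 0, then 10721 and 3206, then 4472 and 160 counts. Rela was tested only because of its compE and Fc-JAG1 counts, so its calls against the washout are not independent of that choice either. Irf9, a subunit of the interferon-activated factor ISGF3, was the fourth. With compE against the washout DESeq2 called Rela higher and Irf2 lower, and with Fc-JAG1 against compE it called Irf1, Irf2 and Creb1 higher, beside 5.80% of all tested genes higher and 3.76% lower in the first comparison and 10.3% higher in the second. EdgeR called none of them, and Nlrc5, the main transactivator of class I genes, had 1 to 42 counts and was not tested.

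Promoters of 5 of the 7 genes were in the RefSeq table (GRCm38.p6), and are shown because class I promoters are known for a shared upstream module that answers NF-κB and interferon. Each stretch of 177 bases is on the plus strand: H2-Q2 at chr17:35342121-35342297, H2-Q4 at chr17:35379431-35379607, H2-Q6 at chr17:35424665-35424841, H2-Q7 at chr17:35439009-35439185 and H2-Q10 at chr17:35469901-35470077. Capitals mark matches, on either strand, to a κB-like motif (GGGGATT, 1 free base, then CC), an ISRE-like motif of interferon response (GAA, 2 free bases, then GAAAC, seen here as its reverse complement) and TATAAA. No match overlapped another.
H2-Q2: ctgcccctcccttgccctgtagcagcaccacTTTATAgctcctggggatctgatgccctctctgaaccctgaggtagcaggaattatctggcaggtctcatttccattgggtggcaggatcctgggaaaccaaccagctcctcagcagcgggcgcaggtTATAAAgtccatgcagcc
H2-Q4: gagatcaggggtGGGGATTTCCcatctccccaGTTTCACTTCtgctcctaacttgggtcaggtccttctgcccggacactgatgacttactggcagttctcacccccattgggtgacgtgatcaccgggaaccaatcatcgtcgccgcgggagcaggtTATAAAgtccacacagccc
H2-Q6: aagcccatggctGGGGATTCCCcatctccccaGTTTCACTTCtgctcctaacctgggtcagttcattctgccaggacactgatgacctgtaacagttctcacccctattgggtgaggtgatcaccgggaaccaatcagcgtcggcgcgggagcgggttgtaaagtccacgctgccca
H2-Q7: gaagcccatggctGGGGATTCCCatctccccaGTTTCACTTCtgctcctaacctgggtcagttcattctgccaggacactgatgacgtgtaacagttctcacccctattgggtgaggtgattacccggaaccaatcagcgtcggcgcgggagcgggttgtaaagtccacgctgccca
H2-Q10: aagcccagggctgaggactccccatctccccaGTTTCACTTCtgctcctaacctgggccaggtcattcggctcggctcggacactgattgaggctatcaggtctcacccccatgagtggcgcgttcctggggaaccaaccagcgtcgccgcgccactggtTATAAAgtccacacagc
The ISRE-like letters were found in H2-Q4, H2-Q6, H2-Q7 and H2-Q10, as in 1.73% of 32851 promoter windows of 300 bases, and the κB-like letters in H2-Q4, H2-Q6 and H2-Q7, as in 0.268%. Windows with both made up 0.0244% of all (8 windows). H2-Q2 held neither, and both H2-K1 and H2-D1 held both.

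Letters and counts can be set side by side for these 5 genes only, and a relation between them was not tested. Promoters of H2-Q1 and H2-Q5, which were highest in the Fc-JAG1 libraries, were not available. H2-Q6 and H2-Q10 were too low to be tested. H2-Q4, H2-Q6 and H2-Q7 held both motifs, and of these H2-Q4 was measured in 6 libraries and overlapped between all conditions, H2-Q6 had 2 counts in all, and H2-Q7 was highest in the Fc-JAG1 libraries. H2-Q2, with neither, was also highest there. The TATAAA box was present in H2-Q2, H2-Q4 and H2-Q10 and in 13.6% of all windows, and CCAAT in all but H2-Q10 and in 37.4%. The motifs were chosen after the sequences had been seen, and a match of letters is a description, not a bound site.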

How the data were processed

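Nascent RNA was captured by EU labelling from 7 sets of sorted cells. Per the methods and labels, cDNA was pre-amplified, libraries were made with the Clontech SMARTer kit and sequenced as 50-base single-end reads, which the authors trimmed (cutadapt 4.2), mapped to GRCm38 (STAR 2.7.8, 1 mismatch allowed) and, where uniquely mapped, gave to genes with featureCounts (Subread 2.0.1). The deposited counts are whole numbers with no normalization, for 55487 genes. The authors' filter (10 counts or more in 2 or more replicates of a condition) leaves 10311 genes, and applying it to the raw counts gave the deposited filtered table. H2-Q1, H2-Q5 and H2-Q7 pass it only through the Fc-JAG1 libraries. The deposited log2 table, a variance-stabilized version, was not used here.

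All 7 libraries entered 1 fit of the raw counts of those genes with edgeR 4.0.16 in R 4.3.3 (quasi-likelihood test, TMM scaling, terms for embryo number and condition, Benjamini-Hochberg adjustment over all genes tested, threshold 0.05, 2-sided). The study's design has the embryo number as a term. Libraries of 1 number deviated together at r = −0.0854 to 0.0915 over genes in 5 pairs, so the data alone do not show the pairing. In a group of 2 libraries the deviations from the group mean are mirror images. These r values are thus not independent and cannot decide whether the libraries are paired. DESeq2 1.42.0 (Wald test), other scalings and filters, no term for embryo number and leaving out each library were alternatives. The scripts were tested on simulated counts, with a pass condition only for edgeR at a spread far below that of these data (edgeR common dispersion 2.42). That condition does not show how well either test performs on libraries like these. P-values measure the spread between these libraries, which may be partly technical. CPM are counts scaled to a common library size, and likeness used log2 CPM with a prior count of 2. Symbols were matched to 55141 of 55487 identifiers. Exons and transcripts were taken from GENCODE M21, and Python 3.11.15 was used for sequences.

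The members and lists were chosen with earlier results of these data known. Named genes are all 7 members, H2-K1, H2-D1 and B2m, genes between H2-D1 and Pou5f1, up to 3 called genes per list with the smallest edgeR p, and the 3 nearest profiles of each tested member, of which 1 is not reported here. Irf9, Nlrc5, Gfi1 and the hepatocyte genes were named after their values were seen. H2-Q8 and H2-Q9 were not analysed here.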

Additional observations from a re-analysis of the deposited data

How the results depend on the processing

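In 21 alternative settings, the 15 log2 fold changes of the 5 tested members gave 315 values: 272 had the direction of edgeR's fit and did not pass the threshold, 12 passed it and 31 changed sign. DESeq2 gave no adjusted p for 42 of the 315. These were counted as not passing, although they have no side of the threshold. The 31 concerned values smaller than their SE in edgeR's fit. H2-Q4 with Fc-JAG1 against the washout turned to 0.11 with edgeR's earlier quasi-likelihood method and to 0.11 in DESeq2 with no replicate block. H2-Q1 with compE against the washout turned to 0.33 in DESeq2, 0.76 in the earlier method, and 0.080 (edgeR) and 0.14 (DESeq2) with no replicate block. Leaving out 1 library, H2-Q4 ran from −2.72 to 2.10 (Fc-JAG1 against washout), from −1.15 to 7.47 (compE against washout) and from −5.37 to 3.24 (Fc-JAG1 against compE), the last sign change without compE 1 (1.63 by edgeR, 3.24 by DESeq2). H2-Q1 ran from −0.47 to 3.26 and H2-Q5 from −0.17 to 0.75 with compE against the washout. The cause was not tested. With Fc-JAG1 against the washout and 1 library left out, H2-Q1 ran from 7.16 to 10.05, H2-Q2 from 1.12 to 8.67, H2-Q5 from 4.99 to 7.72 and H2-Q7 from 4.96 to 8.26, and with no replicate block H2-Q1 was 3.01 and 3.51, H2-Q2 1.22 and 1.47, H2-Q5 2.35 and 3.03 and H2-Q7 4.43 and 4.81 (edgeR and DESeq2). EdgeR called 0 members in each setting. DESeq2 called 3 with Fc-JAG1 against the washout (16.0% of all genes higher), 1 with no replicate block (1.75%) and 0 to 1 without 1 library (7.87% to 12.8%), where 2 to 4 members had no adjusted p. Against compE it called 3 (10.3%), 0 with no replicate block (1.04%) and 0 to 1 without 1 library (1.05% to 11.9%), where 0 to 3 had none. Added after the data had been seen were counts without the library with the fewest genes in a group: for compE against the washout, members whose libraries did not overlap went from 0 to 2 higher without compE 1, to 1 lower without washout 1 (1749 of 10311 genes lower), and to 2 higher and 2 lower without both, where 31.8% and 27.9% of genes did so, and without washout 1 H2-Q1, H2-Q2, H2-Q5 and H2-Q7 were still above the washout with Fc-JAG1 (15.3% of genes). For 40-base windows the shares of unique windows fell to between 52.6% (H2-Q5) and 82.1% (H2-Q1). Uniqueness in the whole genome was not run, since no genome was used here. Over all genes, the median log2 difference between Fc-JAG1 and washout moved from 0.44 to 0.07 with DESeq2's size factors and to 0.71 with total counts. For counting alone, the depth sets a floor of 0.0774 to 0.174 CPM per library, with TMM scaling, for a gene at 0.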
